A study of Mus musculus with 10 samples.

Results

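Long noncoding RNAs are transcripts that are processed like messenger RNAs but carry no long open reading frame. Some act in the nucleus as scaffolds, such as Malat1 at nuclear speckles and Neat1 in paraspeckles. Others are spliced so that their introns release small nucleolar RNAs (snoRNAs, guides for the modification of ribosomal RNA) or their hairpins release microRNAs, and others again act on the gene next to them. In monocytes and macrophages the best known of them set how long the cells live and how strongly they answer to inflammatory signals. The 48 genes described here were selected on measured values. Of these, 47 carry the biotype lincRNA in the deposited annotation and had at least 3 CPM (counts times 1000000 over the total counts of the library) in each of the 10 libraries. Gm36172, a gene that starts next to Arg1 and has the biotype bidirectional_promoter_lncRNA, was added by name because of its difference between the groups, so its values are given without a test. The table held 55487 genes, 5629 of them with the biotype lincRNA, and 1592 lincRNA genes had at least 1 count. No gene carried the biotype lncRNA.

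Spinal cords of 5 male mice were used, all on the C57BL/6 background and of the Arg1-eYFP reporter strain (Arg1tm1Lky), in which cells that express Arg1 also make yellow fluorescent protein (YFP). All 5 mice had experimental autoimmune encephalomyelitis (EAE), a model of multiple sclerosis, and were taken at peak disease. Viable CD3-Ly6G-CD45+CX3CR1+ cells were sorted into YFP+ (ARG1+, 200000 cells) and YFP- (ARG1-, 100000 cells), so that 5 ARG1+ libraries stood against 5 ARG1- libraries from the same mice, called m2, m6, m234, m235 and m236. CX3CR1 is found on monocyte-derived cells, microglia and border-associated macrophages, and this gate does not separate them.

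The library totals were 28212174 to 35455643 counts, apart from 8396863 in the ARG1- library of m234, so that 3 CPM stood for 25.2 counts in that library and for at least 84.6 counts in the others. The summed CPM of 8 monocyte and macrophage markers was 13160 to 18170 in ARG1+ and 11830 to 14510 in ARG1- libraries. Most of that sum is Lyz2 (0.65 on the log2 scale, FDR = 0.00764). Of the 8, 3 were higher (37.5%) and 1 was lower (12.5%), Ccr2 of classical monocytes (-1.12, FDR = 0.00339). With the mouse as a block 4 were higher and 4 lower (50% each). Over all tested genes these shares were 6.82% and 6.15%, and with the block 16.8% and 18.3%. The summed CPM of 8 microglia markers was 749 to 1169 and 833 to 3228, with the highest value in the ARG1- library of m234. All 8 microglia markers had a log2 fold change below 0 (median -1.18), and 7 were lower in every mouse (26.3% of all tested genes were). Without the block 0 passed in edgeR, 1 passed in DESeq2 and 0 in limma. Of the 8, 5 had an unadjusted p below 0.05, against 4117 of all 13740 tested genes. With the block 6 were lower (75%, against 18.3%). The sum of 8 border macrophage markers was 790 to 1586 and 420 to 988, with 2 of the 4 tested higher in ARG1+ cells (50%, against 6.82% of all tested genes). The summed level of 9 B and plasma cell markers was 5.71 to 17.5 in ARG1+ and 32.0 to 69.6 in ARG1- libraries. Of the 4 that could be tested, 3 were lower in ARG1+ cells (75%, against 6.15% of all tested genes). Of the 8 tested dendritic cell markers 5 were lower (62.5%, against 6.15% of all tested genes), Flt3 by 3.59 and Ccr7 by 2.76 on the log2 scale, for example. Of the 8, 7 had a log2 fold change below 0, and Clec9a lay above it (0.28 ± 0.28, FDR = 0.547). The sum over all 10 on that list overlapped between the groups (107 to 358 against 203 to 410). No marker of these lists was at 0 in all libraries. In bulk libraries, fewer cells of a type and less RNA per cell cannot be told apart.

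Of the 48 genes, Mir142hg, Mir155hg, Mir17hg, Gm37233 and Snhg20 contain mature microRNAs, and Gm26532 lies next to some on the same strand. The sequences of 4 of these 6 are shown because they are what the hosts, and the stretch next to Gm26532, are known for. They are from RefSeq on GRCm38.p6, with bases 2 to 8, the seed that pairs with targets, in capitals. Mir142hg (chr11:87755577-87757270, plus strand) contains the hairpin of miR-142, which is restricted to blood cells. Mir155hg (chr16:84703167-84715245, plus strand) contains miR-155, which is induced in activated macrophages. Mir17hg (chr14:115042879-115046727, plus strand) contains the cluster that promotes the cell cycle, of which miR-17 and miR-20a share a seed, as do miR-19a and miR-19b. Gm26532 (chr8:84208920-84209609, plus strand) begins behind the hairpins of miR-23a, miR-27a and miR-24-2. The libraries do not measure mature microRNAs, so that the values given further on are those of the long noncoding transcripts.
miR-142a-5p: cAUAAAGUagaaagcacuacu
miR-142a-3p: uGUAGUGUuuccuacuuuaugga
miR-155-5p: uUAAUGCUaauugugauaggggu
miR-17-5p: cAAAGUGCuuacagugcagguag
miR-20a-5p: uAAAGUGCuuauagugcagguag
miR-18a-5p: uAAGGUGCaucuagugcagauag
miR-19a-3p: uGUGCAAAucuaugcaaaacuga
miR-19b-3p: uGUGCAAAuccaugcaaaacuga
miR-92a-3p: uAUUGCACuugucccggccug
miR-23a-3p: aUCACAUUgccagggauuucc
miR-27a-3p: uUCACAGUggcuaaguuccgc
miR-24-3p: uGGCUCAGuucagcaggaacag

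Gm36172 and Arg1 are transcribed away from each other on chromosome 10 from starts 135 bases apart. Arg1 (chr10:24915221-24927484, minus strand) encodes arginase 1, which splits arginine into ornithine and urea, and the sort was made on its reporter. Its level was 1045, 722, 783, 881 and 579 CPM in the ARG1+ libraries of m2, m6, m234, m235 and m236 and 27.9, 17.4, 16.1, 17.7 and 14.4 CPM in their ARG1- libraries. The difference in Arg1 was 5.45 ± 0.21 (SE) on the log2 scale, which checks the labels of all 10 libraries and is no independent result. Gm36172 (chr10:24927619-24930059, plus strand) had 2.08, 3.10, 2.05, 3.96 and 2.22 CPM in ARG1+ and 0.555, 0.338, 1.31, 0.496 and 0.370 CPM in ARG1- libraries of the same mice in the same order. In every mouse the ARG1+ library was above the ARG1- library, by 2.40 ± 0.33 (SE) on the log2 scale, and the groups did not overlap. These levels rest on 60 to 134 counts in each ARG1+ library and on 11 to 17 counts in each ARG1- library. In ARG1+ cells the counts of Gm36172 came to 0.339% of those of Arg1, and in ARG1- cells to 2.56%. The ARG1- library of m234, at 1.31 CPM from 11 counts, lay above the other ARG1- libraries, and without it the difference was 2.65. The annotated exons of Gm36172, of 155 and 568 bases, share no exon and no 50-base stretch with another gene of the annotation. The first 150 bases of its transcript (GENCODE M21 on GRCm38), all within exon 1 at chr10:24927619-24927768, are shown because they mark where transcription leaves the Arg1 start on the other strand.
Gm36172: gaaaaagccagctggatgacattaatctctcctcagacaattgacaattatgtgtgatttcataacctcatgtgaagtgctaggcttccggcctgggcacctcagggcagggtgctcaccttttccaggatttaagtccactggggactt

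**Figure D1:**
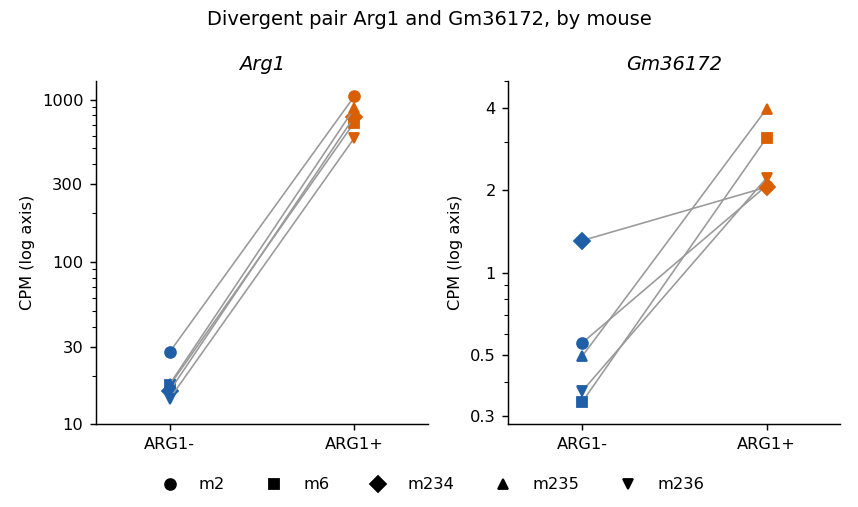
CPM (log axes) of Arg1 and Gm36172 in the ARG1- and ARG1+ library of each of the 5 mice, with a line joining the libraries of a mouse. Arg1 ran from 14.4 to 27.9 CPM in ARG1- and from 579 to 1045 CPM in ARG1+ libraries, and Gm36172 from 0.338 to 1.31 and from 2.05 to 3.96 CPM.

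The 47 genes chosen on level held 0.277% to 0.309% of all counts in ARG1+ libraries and 0.309% to 0.335% in ARG1- libraries. A few genes made up most of this, since the 6 most abundant took 73.0% of the counts of the 47. Malat1 led with a median of 803 CPM over the 10 libraries, followed by AW112010 at 454, Neat1 at 364, AI504432 at 253, Gm47283 at 167 and AU020206 at 164. Read counts grow with transcript length, and per kilobase of annotated exon the order changed. On that scale AW112010, an interferon-induced transcript of myeloid cells, was highest at 565 CPM per kilobase, followed by Gm10076 at 195, Erdr1 at 190, Gm47283 at 149 and Malat1 at 115. Of the 50-base stretches of Gm10076, Erdr1 and Gm47283, 69.9%, 59.7% and 40.5% also occur in other genes, so that their places are uncertain. Neat1, whose long isoform spans 20771 bases, stood at 17.5 CPM per kilobase of that length. At the limit of the selection, 2310001H17Rik (lowest library 3.01 CPM) and Gm7160 (3.04 CPM) were just inside, and Gm21860 (2.97 CPM) and Gm42031 (2.95 CPM) just outside.

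**Figure D2:**
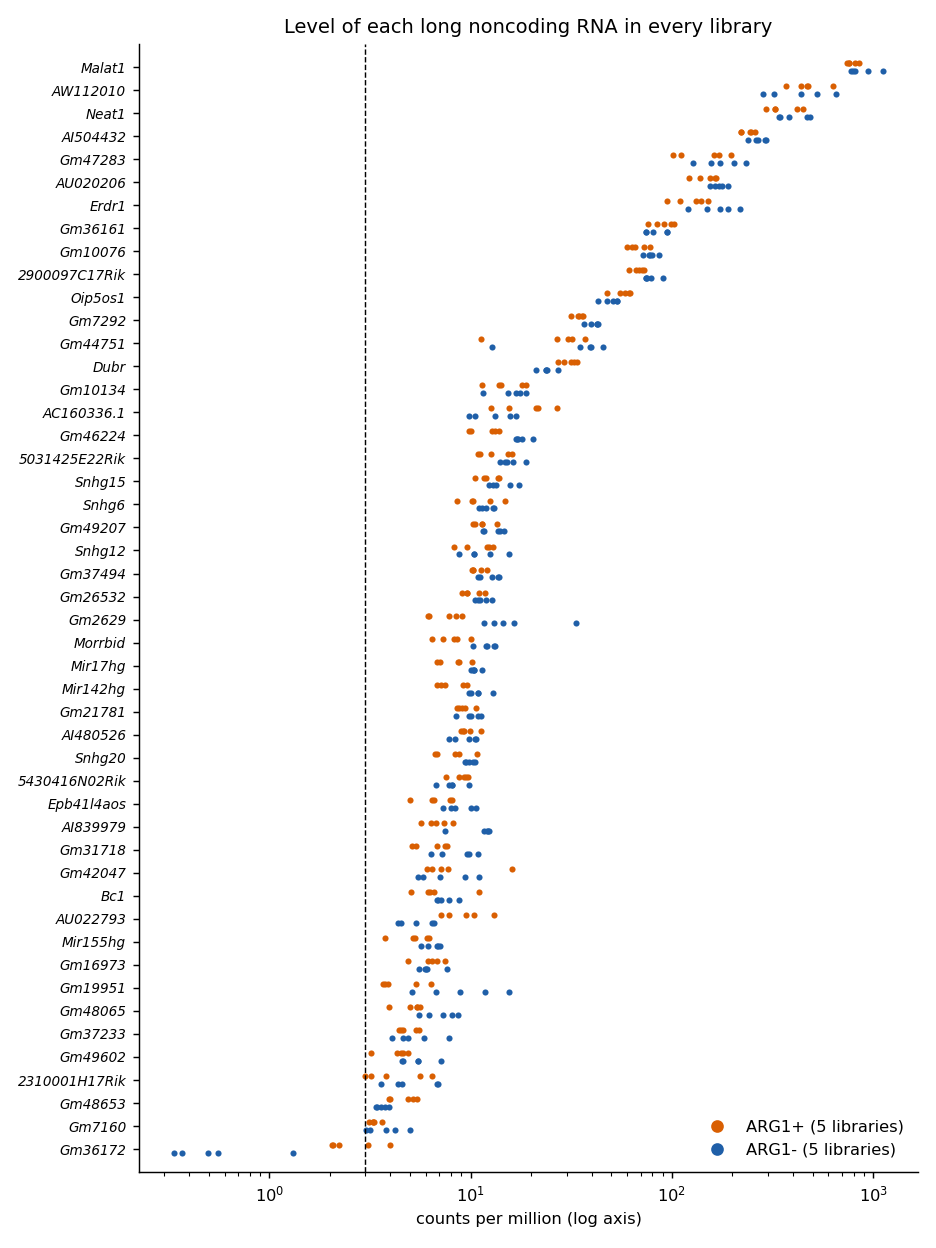
CPM (log axis) of the 48 genes, sorted by their median, with 1 point for each library. The dashed line marks 3 CPM, and only Gm36172, the gene added by name, lies partly below it. For most genes the ranges of both groups overlap.

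Between ARG1+ and ARG1- cells, 3 of the 47 genes were higher and 6 were lower in ARG1+ cells at a false discovery rate (FDR) below 0.05 in edgeR's quasi-likelihood test, adjusted over all 13740 genes tested. AU022793, Dubr and Gm48653 were higher. Gm2629, Gm19951, AI839979, Gm46224, Morrbid and Gm7292 were lower. Over all tested genes 6.82% were higher and 6.15% lower, so that 6.38% of the 47 against 6.82% is near the background for increases, and 12.8% against 6.15% is above it for decreases. Without m2 the decreases were 1 of the 47, beside 316 over all tested genes. The median log2 fold change of the 47 was -0.16, with 12 values above and 35 below 0, and that of all tested genes was -0.0022. At an unadjusted p below 0.05 the count was 19 of the 47, against 4117 of all 13740 tested genes and 3407 of the 10459 genes that met the same level rule. Among the 9089 protein-coding genes that met the same level rule the median was 0.01. All 47 passed the low-count filter of the test. With an additional limit of 1 on the absolute log2 fold change, 0 of the 47 were higher (0.56% of all tested genes) and 2 were lower (0.888%), Gm2629 and Gm19951.

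Each mouse gave a library to both groups, and the libraries of a mouse resembled each other. When the mouse was added to the model as a block, 6 of the 47 were higher (12.8%, against 16.8% of all tested genes) and 19 were lower (40.4%, against 18.3%). The 9 genes named above were among these 25, with an FDR from 0.0002 (Gm19951) to 0.0274 (Gm48653) in that fit. The fits below that leave out a library or a mouse had no block. On CPM, 6 of the 47 were higher in the ARG1+ library of every mouse (15.9% of all tested genes were) and 24 were lower in every mouse (26.3% of all tested genes). The groups did not overlap for 3 of the 47 with the ARG1+ libraries above (4.43% of all tested genes) and for 6 with the ARG1+ libraries below (7.61%).

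**Figure D3:**
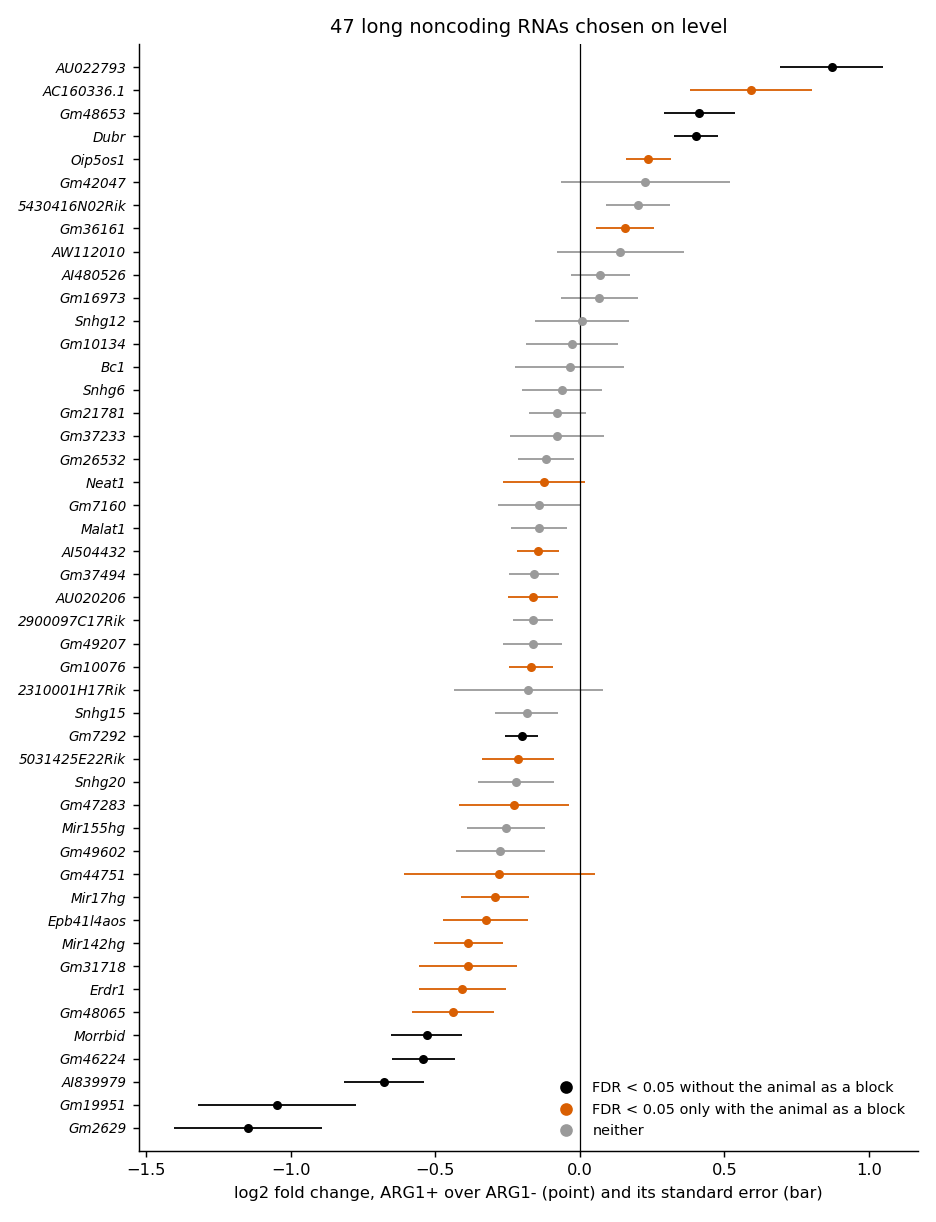
Log2 fold change (ARG1+ over ARG1-, points) with its standard error (bars) of the 47 genes chosen on level. Black points passed FDR 0.05 in the fit without a block, orange points only with the mouse as a block, and grey points in neither, and 35 of the 47 points lie below 0.

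AU022793 (chr15:39962649-39967024, plus strand), a gene without an established function, had 13.1, 10.4, 7.10, 9.46 and 7.81 CPM in ARG1+ libraries and 4.34, 5.36, 6.55, 4.54 and 6.42 CPM in ARG1- libraries, in the order m2, m6, m234, m235, m236 that is kept below. Its lowest ARG1+ library lay above its highest ARG1- library. The difference was 0.87 ± 0.18 (SE) on the log2 scale (FDR = 0.00887), and the call was lost without m6 (FDR = 0.062). Dubr (chr16:50719294-50732773, minus strand), known from the differentiation of muscle cells, had 33.8, 31.7, 32.6, 29.3 and 27.1 CPM in ARG1+ and 24.0, 27.1, 21.2, 23.6 and 23.7 CPM in ARG1- libraries. It was higher in every mouse, although the lowest ARG1+ and the highest ARG1- library were nearly equal, and the difference was 0.40 ± 0.08 (FDR = 0.00659), or 0.36 without m2 (FDR = 0.0504). Gm48653 (chr12:73355081-73361997, plus strand) had 5.20, 5.44, 3.95, 3.96 and 4.92 CPM in ARG1+ and 3.76, 3.38, 3.57, 3.93 and 3.43 CPM in ARG1- libraries. In m235 both libraries had nearly the same level. The difference was 0.41 ± 0.12 (FDR = 0.0464), and the call was lost in 10 of the 15 fits that left out a library or a mouse, with the FDR then reaching 0.202 without m6.

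Gm2629 (chr18:15194782-15214696, plus strand) had the largest decrease, with 6.24, 8.52, 7.86, 6.15 and 9.03 CPM in ARG1+ and 16.4, 14.5, 33.3, 11.6 and 13.2 CPM in ARG1- libraries. The groups did not overlap, and the ARG1- library of m234, which also had the highest summed level of microglia markers (3228 CPM), was far above the rest. The part of microglia RNA in the level of Gm2629 was not tested. The difference was -1.15 ± 0.26 (FDR = 0.0136), and without that library it was -0.84 (FDR = 0.00327). Without m2 the call was lost (FDR = 0.0691). Gm19951 (chr12:99643093-99647221, plus strand) had 3.88, 3.75, 3.66, 5.35 and 6.396 CPM in ARG1+ and 6.73, 8.91, 5.12, 11.8 and 15.5 CPM in ARG1- libraries. It was lower in every mouse, but the level varied about as much between mice as between the groups, and the ranges overlapped. The difference was -1.05 ± 0.27 (FDR = 0.0281, with the block 0.0002). Without the block the call was lost in 8 of 15 fits with a library or a mouse left out (FDR up to 0.113, without m6).

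AI839979 (chr5:31569595-31571397, minus strand) had 6.37, 7.40, 8.15, 5.71 and 6.75 CPM in ARG1+ and 12.05, 11.7, 7.503, 12.3 and 12.2 CPM in ARG1- libraries. In 4 mice the ARG1- library was clearly higher, and in m234 it was slightly lower. The difference was -0.68 ± 0.14 (FDR = 0.00911), and the call was lost without m2, m6 or m236 (FDR up to 0.0641). Gm46224 (chr10:51526340-51531161, plus strand) had 10.1, 13.3, 9.85, 12.8 and 13.9 CPM in ARG1+ and 17.1, 20.4, 16.8, 17.1 and 18.1 CPM in ARG1- libraries. Here the groups stood well apart. The difference was -0.54 ± 0.11 (FDR = 0.00862), and the call held in all 15 fits with a library or a mouse left out, with an FDR of at most 0.0433.

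Morrbid (chr2:128178319-128502765, minus strand) restrains the death gene Bcl2l11 on the same chromosome and prolongs the life of short-lived myeloid cells. It had 8.24, 8.55, 7.33, 10.1 and 6.46 CPM in ARG1+ and 12.05, 11.96, 13.1, 13.2 and 10.3 CPM in ARG1- libraries. Every ARG1+ library lay below every ARG1- library. The difference was -0.53 ± 0.12 (FDR = 0.0167), and the call was lost in 2 of the 15 fits, those without m2 (FDR = 0.0747) or m6 (FDR = 0.0727). Bcl2l11, which encodes the protein BIM, lies 15772 bases away and averaged 188 ± 14 CPM (SD) over the 5 ARG1+ libraries and 204 ± 15 CPM over the 5 ARG1- libraries. Its difference of -0.08 ± 0.07 did not pass the test (FDR = 0.478). Gm7292 (chr6:117716342-117718868, plus strand) had 34.4, 35.7, 34.7, 31.5 and 36.4 CPM in ARG1+ and 42.9, 42.7, 39.5, 36.5 and 42.3 CPM in ARG1- libraries. Its difference was small, at -0.20 ± 0.06 (FDR = 0.0402, with the block 0.00365). Without the block the call was lost in 11 of 15 fits with a library or a mouse left out, with the FDR reaching 0.169 without m2. In addition, 77.5% of its 50-base stretches also occur in another gene, most of them in 2900097C17Rik of the same selection, so that the reads of both genes cannot be fully told apart. 2900097C17Rik itself had -0.16 ± 0.07 (FDR = 0.132).

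**Figure D4:**
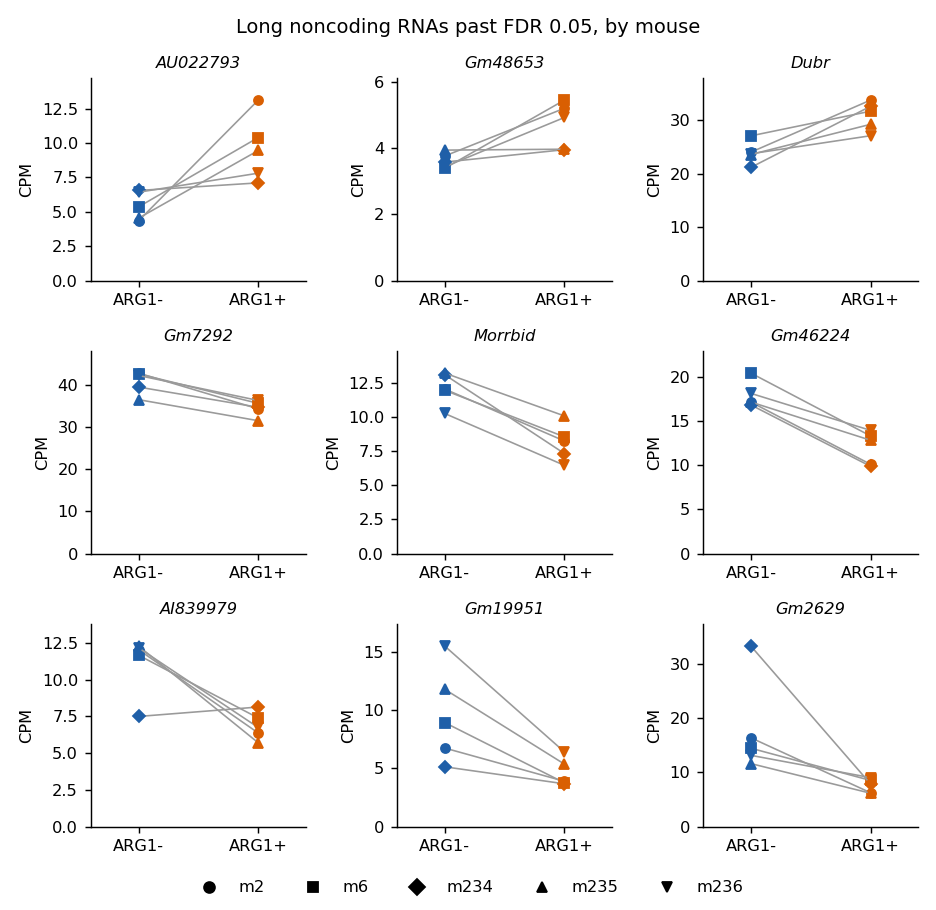
CPM of the 9 genes past FDR 0.05 in the ARG1- and ARG1+ library of each mouse, each panel on its own linear axis from 0. Lines rise in every mouse for AU022793, Gm48653 and Dubr and fall in every mouse for the others, apart from AI839979 in m234 (7.503 CPM in ARG1- and 8.15 CPM in ARG1+).

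RefSeq holds a promoter window, from 250 bases before to 50 bases after the start, for 22 of the 48 genes on GRCm38.p6. Those of Dubr, AI839979 and Gm19951, whose starts lie at or within a few bases of those in the table, are shown to set the start region of a gene that was higher beside those of 2 that were lower. Capitals mark motif matches on either strand, none of which overlap. The CCAAT box occurs in 37.4% of all 32851 promoter windows. The GC box, searched as GGGCGG, occurs in 35.7% of them, and the TATA box, searched as TATAAA, in 13.6%. The letters AGGAAG, bound by ETS factors such as PU.1 of myeloid cells, occur in 35.4%, and the AP-1 motif TGANTCA in 7.8%. The window of Dubr (chr16:50732724-50733023, minus strand) has 19 CpG dinucleotides, against a median of 7, and 1 GC box on the other strand. That of AI839979 (chr5:31571348-31571647, minus strand) has 7 CpG and 3 matches to AGGAAG. That of Gm19951 (chr12:99642846-99643145, plus strand) has 3 CpG and 1 match to AGGAAG on the other strand. These matches describe the letters of the windows only.
Dubr: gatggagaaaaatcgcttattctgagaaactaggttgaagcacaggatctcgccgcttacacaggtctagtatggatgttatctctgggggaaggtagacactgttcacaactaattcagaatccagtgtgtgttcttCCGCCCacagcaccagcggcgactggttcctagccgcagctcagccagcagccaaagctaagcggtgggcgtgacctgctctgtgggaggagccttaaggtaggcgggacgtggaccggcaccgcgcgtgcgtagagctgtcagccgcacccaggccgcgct
AI839979: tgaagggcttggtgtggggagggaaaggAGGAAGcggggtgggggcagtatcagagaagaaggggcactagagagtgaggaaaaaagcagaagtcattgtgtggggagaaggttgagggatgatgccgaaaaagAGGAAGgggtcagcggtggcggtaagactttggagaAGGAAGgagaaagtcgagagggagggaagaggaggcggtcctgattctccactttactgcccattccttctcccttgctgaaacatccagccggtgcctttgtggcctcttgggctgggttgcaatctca
Gm19951: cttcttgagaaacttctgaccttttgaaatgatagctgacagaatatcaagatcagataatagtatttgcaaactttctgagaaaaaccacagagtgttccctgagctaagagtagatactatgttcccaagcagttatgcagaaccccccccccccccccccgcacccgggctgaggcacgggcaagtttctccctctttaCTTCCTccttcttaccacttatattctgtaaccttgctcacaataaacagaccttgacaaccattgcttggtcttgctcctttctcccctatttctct

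Malat1 and Neat1, the nuclear scaffold RNAs, did not pass the test. Malat1 had 741 to 853 CPM in ARG1+ and 779 to 1119 CPM in ARG1- libraries, a difference of -0.14 ± 0.10 (FDR = 0.357, with the block 0.13). Neat1 had 324, 449, 293, 419 and 325 CPM in ARG1+ and 382, 486, 340, 471 and 346 CPM in ARG1- libraries. It was lower in the ARG1+ library of every mouse, by -0.12 ± 0.14 (FDR = 0.595), and the mice differed far more than the groups. Of the sum of squares of its log2 level, 92.1% lay between mice and 6.81% between groups, and with the mouse as a block its FDR was 0.0217. Of the 6 tested genes on a list of nuclear-retained RNAs, which holds Malat1 and Neat1 of the genes described here, 0 passed in edgeR without the block. In DESeq2 1 was lower and in limma 0 (1307 and 841 of all 13740 tested genes), and 1 had an unadjusted p below 0.05 (4117 of all). With the block 2 were lower (33.3%, against 18.3% of all tested genes). Of the 18 genes for paraspeckle proteins, which bind Neat1, 0 were higher and 3 were lower (16.7%, against 6.15% of all tested genes), with a median of -0.14 and 17 values below 0. With the block 12 were lower (66.7%, against 18.3%), and 15 were lower in every mouse (26.3% of all tested genes were). Sfpq, the most abundant of them, had -0.19 ± 0.06 (FDR = 0.0639, with the block 0.00311), and Rbm4b, the one with the smallest FDR, fell by 0.26 on the log2 scale (FDR = 0.0261).

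The snoRNA hosts Snhg6, Snhg12, Snhg15, Snhg20 and Epb41l4aos did not pass the test. Their log2 fold changes ran from -0.33 ± 0.15 (Epb41l4aos, FDR = 0.162) to 0.01 ± 0.16 (Snhg12, FDR = 0.982). Snhg12 had 8.28, 12.1, 12.3, 12.98 and 9.58 CPM in ARG1+ and 10.4, 12.4, 15.5, 10.4 and 8.75 CPM in ARG1- libraries, with no common direction over the mice. Epb41l4aos was lower in every mouse (4.99 to 8.08 against 7.27 to 10.6 CPM) and passed with the block (FDR = 0.0141). Most snoRNA hosts carry other biotypes in the table and so were not selected. Over all 17 tested noncoding snoRNA hosts, 0 were higher and 1 was lower, Gas5, which averaged 80.4 ± 9.96 CPM (SD) over the 5 ARG1+ and 104 ± 12 CPM over the 5 ARG1- libraries (-0.33 ± 0.10, FDR = 0.0449). That is 5.88% lower, near the 6.15% of all tested genes. The median was -0.21, and 15 of the 17 values were below 0. With the block 1 was higher (5.88%, against 16.8% of all tested genes) and 8 were lower (47.1%, against 18.3%).

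These hosts share with ribosomal protein genes a start sequence that ties their output to translation, and their snoRNAs act in a particle with snoRNP proteins. Of the 81 ribosomal protein genes, 0 were higher and 10 were lower (12.3%, against 6.15% of all tested genes), with a median of -0.18 and 80 values below 0. With the mouse as a block 66 of the 81 were lower (81.5%, against 18.3%), and 72 were lower in every mouse (26.3% of all tested genes were). Rpl4, the most abundant, had -0.11 ± 0.07 (FDR = 0.343, with the block 0.038), and Rpl18 fell by 0.29 on the log2 scale (FDR = 0.0203). Of 18 genes for snoRNP proteins and their assembly factors, 0 were higher and 3 were lower (16.7%, against 6.15% of all tested genes), among them Nop58 with -0.33 ± 0.06 (FDR = 0.00606), while Nop56, the most abundant, had 0.10 ± 0.09 (FDR = 0.501, with the block 0.0458). With the block 1 was higher (5.56%, against 16.8%) and 4 were lower (22.2%, against 18.3%).

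Mir142hg, Mir17hg and Mir155hg, which contain microRNAs printed above, and Gm26532, which lies next to some, had log2 fold changes below 0. Mir142hg had 7.10, 9.64, 6.82, 9.22 and 7.46 CPM in ARG1+ and 10.9, 10.9, 12.98, 9.82 and 10.02 CPM in ARG1- libraries, and the groups did not overlap. Its difference of -0.39 ± 0.12 just missed the threshold without the block (FDR = 0.0528) and passed with it (FDR = 0.0256). Mir17hg had 7.07, 8.68, 8.81, 10.2 and 6.81 CPM in ARG1+ and 10.4, 10.2, 10.4, 11.4 and 10.1 CPM in ARG1- libraries, a difference of -0.29 ± 0.12 (FDR = 0.115, with the block 0.0195). Mir155hg had 3.76 to 6.20 CPM in ARG1+ and 5.68 to 7.03 CPM in ARG1- libraries and did not pass in either fit (-0.26 ± 0.14, FDR = 0.231, with the block 0.0514). Gm26532, behind the miR-23a cluster, had 9.11 to 11.7 CPM against 10.6 to 12.7 CPM (-0.12 ± 0.10, FDR = 0.444). Of the 6 tested genes on the list of microRNA hosts 0 passed in edgeR without the block. In DESeq2 2 were lower and in limma 1 (1307 and 841 of all 13740 tested genes), and 4 had an unadjusted p below 0.05 (4117 of all). With the block 4 were lower (66.7%, against 18.3% of all tested genes).

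AW112010, the most abundant of the immune genes, had 367, 471, 437, 633 and 476 CPM in ARG1+ and 285, 436, 322, 651 and 524 CPM in ARG1- libraries. It was higher in ARG1+ cells in 3 mice and lower in 2 (0.14 ± 0.22, FDR = 0.709), and 84.7% of its sum of squares lay between mice. Of the 5 tested genes on the list of immune long noncoding RNAs 1 passed, Morrbid (20% lower, against 6.15% of all tested genes), and with the block 1 was higher and 3 were lower (20% and 60%, against 16.8% and 18.3%). Oip5os1 (Cyrano), which carries a site for the decay of miR-7, had 61.0, 62.1, 54.999, 47.5 and 58.7 CPM in ARG1+ and 51.2, 53.3, 53.1, 43.0 and 47.9 CPM in ARG1- libraries. It was higher in every mouse with overlapping ranges (0.24 ± 0.08, FDR = 0.0656), and it passed with the block (FDR = 0.00224). Of the 5 tested genes on the list of other known long noncoding RNAs, which holds Oip5os1, 0 passed in edgeR without the block. In DESeq2 1 was higher and 1 lower, against 1276 and 1307 of all 13740 tested genes, and in limma 0 passed. An unadjusted p below 0.05 was found for 2 (4117 of all tested genes). With the block 1 was higher and 1 was lower (20% each, against 16.8% and 18.3%).

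For other genes too the mouse made up more of the variation than the group, and here the fit with the block changed the call. For 33 of the 47 genes (70.2%, against 71.8% of all tested genes) the sum of squares of the log2 level was larger between mice than between groups. Gm44751 was the clearest example, with 37.0, 31.8, 30.6 and 27.0 CPM in the ARG1+ libraries of the other mice but 11.25 CPM in m236. Its ARG1- libraries had 45.4, 39.5, 35.0 and 39.1 CPM, and 12.8 CPM in m236. Both libraries of m236 were thus low, 94.7% of the sum of squares lay between mice, and the difference of -0.28 ± 0.33 (FDR = 0.611) passed with the block (FDR = 0.00554). Ctsc, which encodes the lysosomal protease cathepsin C and ends 590 bases upstream of Gm44751 on the same strand, was not low in that mouse, with 1614 CPM in its ARG1+ and 1935 CPM in its ARG1- library against 1609 to 1894 and 1877 to 2114 CPM in the other mice.

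AC160336.1 (chr14:44544055-44637201, minus strand), annotated as 1 exon of 93147 bases, had 15.6, 21.1, 12.6, 21.8 and 26.9 CPM in ARG1+ and 9.80, 13.2, 10.5, 15.8 and 16.8 CPM in ARG1- libraries. It was higher in every mouse (0.59 ± 0.21, FDR = 0.0827, with the block 0.000157). AC160336.1 overlaps 2 protein-coding genes, and 13.25% of its 50-base stretches also occur in other genes, most of all Gm5624. Erdr1, near the end of the X chromosome, had 139, 151, 109, 94.9 and 132 CPM in ARG1+ and 218, 190, 150, 121 and 174 CPM in ARG1- libraries. It was lower in every mouse (-0.41 ± 0.15, FDR = 0.0937, with the block 0.000158). Gm47283 on the Y chromosome, in which 40.5% of the 50-base stretches also occur elsewhere (59.7% in Erdr1, most of them in Gm47283), had 172, 197, 111, 102 and 162 CPM in ARG1+ and 234.1, 205, 157, 127 and 174 CPM in ARG1- libraries. In both groups its mice followed the same order as those of Erdr1, and its difference of -0.23 ± 0.19 (FDR = 0.449) passed with the block (FDR = 0.015). Gm31718 had 5.14 to 7.67 CPM in ARG1+ and 6.39 to 10.9 CPM in ARG1- libraries (-0.39 ± 0.17, FDR = 0.147, with the block 0.0059), and Gm10076, of which 69.9% of the 50-base stretches also occur in other genes such as Rpl41, had 59.8 to 77.6 and 72.3 to 86.1 CPM (-0.17 ± 0.08, FDR = 0.154, with the block 0.0128).

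AI504432 and AU020206, each among the 6 most abundant genes, were lower in the ARG1+ library of every mouse but passed with the block only. AI504432 had 246, 219, 244, 260 and 220 CPM in ARG1+ and 290, 269, 263, 293 and 238 CPM in ARG1- libraries (-0.15 ± 0.07, FDR = 0.199, with the block 0.0148). AU020206 had 122 to 166 CPM in ARG1+ and 155 to 191 CPM in ARG1- libraries (-0.16 ± 0.09, FDR = 0.233, with the block 0.0186).

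Because some long noncoding RNAs act on or are read through from the gene beside them, each of the 47 was set against its nearest tested protein-coding gene. The median distance was 7270 bases, 2 pairs overlapped on opposite strands and 23 were 5000 bases apart or less. With protein-coding genes that were not tested included, 4 of the 47 overlapped a coding gene. Of the 47 neighbours 4 were higher and 3 were lower at FDR below 0.05 (backgrounds of 6.82% and 6.15%). The log2 fold changes of gene and neighbour had the same sign in 33 pairs and opposite signs in 14. Values below 0 were found for 35 of the 47 genes and 29 of the 47 neighbours, and this lean by itself raises the number of same-sign pairs. The correlation of the log2 fold changes across pairs was r = 0.36 (Spearman's rho = 0.20), a description over 47 pairs measured in the same libraries.

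In 2 pairs both genes passed with the same sign. AU022793 lies 18655 bases from Lrp12, a receptor of the low-density lipoprotein receptor family, which is transcribed in the other direction and averaged 98.8 ± 14.4 CPM (SD) over the 5 ARG1+ and 63.8 ± 8.46 CPM over the 5 ARG1- libraries (0.66 ± 0.11, FDR = 0.00238). Gm48653 starts 1032 bases behind the end of Slc38a6, a gene of an amino acid transporter family, on the same strand. Slc38a6 averaged 45.2 ± 3.76 CPM over the ARG1+ and 33.2 ± 2.93 CPM over the ARG1- libraries (0.49 ± 0.07, FDR = 0.00143), and the counts of Gm48653 came to 10.6% of its counts. In 1 pair both passed with opposite signs, Gm7292 and Zfp637, a zinc finger gene 122312 bases away that was higher (0.40 ± 0.10, FDR = 0.0245). Spry2, an inhibitor of receptor tyrosine kinase signalling 209736 bases from Gm10076, was higher by 0.92 ± 0.11 (FDR = 0.000462). Mid1, a ubiquitin ligase gene that ends 3923 bases before Erdr1, fell by 0.39 on the log2 scale (FDR = 0.0153).

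Of the 47 genes, 9 begin within 5000 bases behind the end of their neighbour on the same strand, where transcription past the end of the coding gene would also give reads. Their log2 fold changes ran from -0.41 to 0.41, and 8 of the 9 were below 0. Without the block 1 was higher, Gm48653, and 0 were lower (11.1% and 0%, against 6.82% and 6.15% of all tested genes). With the block 1 was higher and 4 were lower (11.1% and 44.4%, against 16.8% and 18.3%). Their counts against those of the neighbour varied widely, from 1.65% for Gm44751 behind Ctsc to 266% for AI504432, which starts 1434 bases behind the potassium channel gene Kcna3, and 907% for Neat1 behind Frmd8. Kcna3 had -0.20 ± 0.09 (FDR = 0.142, with the block 0.0202).

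In 3 further pairs both genes start from the same short stretch in opposite directions, as Gm36172 and Arg1 do. Gm7160 starts 124 bases from Zcchc2, a gene for a zinc finger protein. Zcchc2 averaged 107 ± 3.14 CPM (SD) over the 5 ARG1+ and 128 ± 4.88 CPM over the 5 ARG1- libraries, and the groups did not overlap (-0.22 ± 0.05, FDR = 0.0139). Gm7160 had 3.33, 3.62, 3.28, 3.28 and 3.12 CPM in ARG1+ and 3.04, 4.20, 5.002, 3.15 and 3.80 CPM in ARG1- libraries (-0.14 ± 0.14, FDR = 0.547), a value that lay within its error of that of Zcchc2. 5031425E22Rik starts 172 bases from Kmt2e, which encodes a chromatin-associated protein of the trithorax family. The former had 10.9 to 16.01 CPM in ARG1+ and 14.0 to 18.9 CPM in ARG1- libraries (-0.21 ± 0.12, FDR = 0.272, with the block 0.0448), and Kmt2e differed by -0.03 ± 0.06 (FDR = 0.781). AI480526 starts 527 bases from Setd1b, a histone methyltransferase gene, and had 0.07 ± 0.10 (FDR = 0.679), whereas Setd1b had -0.28 ± 0.08 (FDR = 0.0457). Thus none of these 3 long noncoding RNAs passed the test without the block, while 2 of their partners did. Of the exons of AI480526 66.6% overlap an antisense gene, and the sources used here do not state if strand was used in the counting. The 123 bases between the starts of Gm7160 and Zcchc2 (chr1:105990283-105990405 of GRCm38.p6, plus strand, from the RefSeq window of Zcchc2) are shown because both genes begin at their ends. They hold 14 CpG, and capitals mark 1 match to CCAAT on the other strand and 2 GC boxes.
Gm7160 to Zcchc2: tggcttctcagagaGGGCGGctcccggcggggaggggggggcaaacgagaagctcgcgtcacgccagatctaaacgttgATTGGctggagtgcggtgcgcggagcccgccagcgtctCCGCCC

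**Figure D5:**
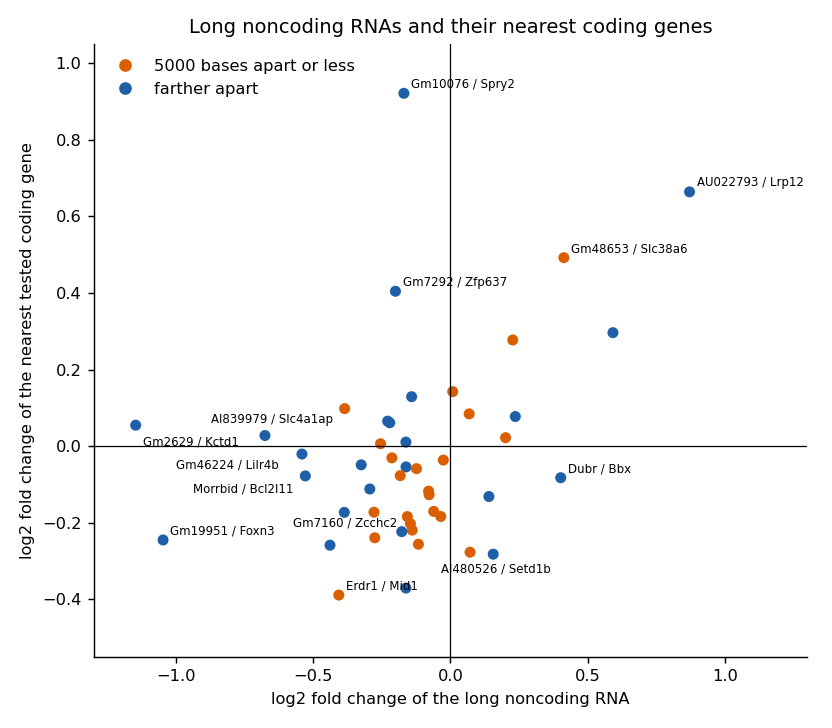
Log2 fold change (ARG1+ over ARG1-) of each of the 47 genes against that of its nearest tested protein-coding gene, with orange points for pairs 5000 bases apart or less. AU022793 with Lrp12 and Gm48653 with Slc38a6 lie at the upper right, and Gm2629 and Gm19951 lie at the far left without a neighbour that passed the test.

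For 15 of the 47 genes at least 10% of the 50-base stretches of their exons also occur in another gene, and for these the share of reads that was counted is uncertain. Of these 15, 0 were higher and 1 was lower (Gm7292, 6.67%), and of the other 32, 3 were higher and 5 were lower (9.38% and 15.6%), against 6.82% and 6.15% of all tested genes. Exons of 6 genes overlapped another gene on the opposite strand over more than 10% of their length.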

How the data were processed

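The authors sorted ARG1+ and ARG1- cells from 5 spinal cords, made strand-specific RNA libraries from each and read them from 1 end over 50 bases. The authors aligned the reads with STAR (version 2.7.10b in the submitters' processing notes) to GRCm38, counted them on the basic Ensembl annotation with summarizeOverlaps in Union mode and summed transcripts to genes. The deposited values are whole-number counts per gene without normalization. The sources used here do not state if strand was used in the counting. Of the gene IDs 99.5% were found in GENCODE M21 of the same build, from which exons and shared 50-base stretches were computed. Neighbours were taken from the gene positions deposited with the counts.

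Genes above 1 CPM in at least 3 libraries were tested with edgeR 4.0.16 in R 4.3.3 (quasi-likelihood test, TMM library sizes, no block, Benjamini-Hochberg FDR over all tested genes). Alternatives were RLE or plain library sizes, DESeq2 1.42.0, limma-trend (limma 3.58.1), other filters, a fold limit, a replicate block by mouse, and leaving out each library or mouse. The mouse numbers pair the libraries, since both sorts came from the same animal: residuals of the same mouse correlated at 0.361 to 0.664 across genes, those of different mice at up to 0.0675. CPM values are unscaled by TMM, and ranges, overlaps and directions by mouse are on that scale. Sums of squares were taken on log2(CPM + 0.1) with TMM.

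The genes, gene lists and tests were chosen with earlier results of these data known. Named genes are Gm36172 and Arg1, the 6 most abundant, all past FDR 0.05, those in lists of known roles, those next to the 3 CPM limit, up to 6 whose call changed with the block, coding neighbours that passed or lie within 2000 bases, and 2 genes of each companion list, of which 1 list is not reported here. Others named were chosen after their values were seen. Library totals were 8396863 to 35455643 counts, and counting error is smallest in the deepest libraries. 0 columns were left out.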

Additional observations from a re-analysis of the deposited data

Results flagged for a closer look

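Within each group of 5 libraries, the gap between the most extreme library and its nearest neighbour was compared with the whole range, for the 32 named long noncoding RNAs. In 4 of 64 groups the gap was above 0.71 of the range, Dixon's limit for 5 samples, and chance gives this in about 1 of 20 groups. In 3 of the 4 the library was the ARG1- library of m234, which had the fewest counts. AI839979 had 7.503 CPM there, against 11.7 to 12.3 CPM in the other ARG1- libraries. Gm2629 had 33.3 CPM there, against 11.6 to 16.4 CPM, and Gm36172 had 1.31 CPM, against 0.338 to 0.555 CPM. In the ARG1- library of m235, Mir17hg had 11.4 CPM, against 10.1 to 10.4 CPM in the others.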

How the results depend on the processing

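Of the 47 long noncoding RNAs, 3 were higher and 6 were lower as reported. With DESeq2 5 were higher and 9 lower (1276 and 1307 over all tested genes), and with column totals 2 and 8 (705 and 1281). The mouse as a replicate block gave 6 higher and 19 lower (2307 and 2519), and a fold limit 0 and 2 (77 and 122). With the level limit at 10 CPM, which selects fewer genes, 1 was higher and 1 lower. At 1 CPM, which selects more, 5 were higher and 7 lower. The numbers of genes at these limits are not given here. The counts therefore have no share to set beside the 6.82% and 6.15% of all tested genes. Leaving out a library or a mouse gave 1 to 4 higher and 1 to 7 lower, against 360 to 1037 and 284 to 911 over all tested genes. The counts were lowest without m2 (1 and 1, against 372 and 316) or m6 (1 and 2, against 360 and 284). Without the ARG1- library of m234 they were 2 and 6, against 995 and 782 over all tested genes. Without genes that share 10% or more of their 50-base stretches, a choice made after seeing the data, they were 3 and 5 of 32. These are 9.38% and 15.6%, against 6.82% and 6.15% of all tested genes.

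Over all tested genes 937 were higher and 845 lower. With column totals these were 705 and 1281, with DESeq2 1276 and 1307, with the replicate block 2307 and 2519, with the fold limit 77 and 122, and with a library or mouse left out 360 to 1037 and 284 to 911. Column totals moved the median of all genes by -0.04 on the log2 scale. Over the 148 tested lincRNA genes 7 were higher and 11 lower (4.73% and 7.43%, against 6.82% and 6.15% of all tested genes). A filter of 3 CPM in all libraries keeps only the 47 of them, and the counts were then 3 and 7. They were 16 and 33 with the replicate block (10.8% and 22.3%, against 16.8% and 18.3%) and 3 and 5 with the fold limit. With DESeq2 17 were lower, and with a library or mouse left out the counts were 1 to 9 and 2 to 14. The causes of the other changes were not tested.

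The named members here include Gm36172, which was added because of its difference, so that its entries say nothing about stability. Of 703 log2 fold changes of named members under an alternative, 624 kept their direction and their side of FDR 0.05, 40 lost the call, 27 gained it and 12 changed sign. The last were those of Snhg6 and Snhg12, which lay near 0. Snhg12 had -0.034 with column totals and -0.0104 with limma-trend. With a library or mouse left out Snhg12 ran from -0.0768 to 0.12 and Snhg6 from -0.19 to 0.0263. In the library with the fewest counts 3 CPM stood for 25.2 counts, which limits the precision of the lowest genes.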

Other observations

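Several known long noncoding RNAs outside the selection were measured at lower levels or carry another biotype. Snhg11, a snoRNA host with neuronal expression, averaged 2.07 ± 1.21 CPM (SD) over the 5 ARG1+ and 0.666 ± 0.715 CPM over the 5 ARG1- libraries (1.52 ± 0.60 on the log2 scale, FDR = 0.113, with the mouse as a block 0.0198). Mirt2, which is induced by lipopolysaccharide, had 9.65 ± 4.41 and 5.63 ± 3.72 CPM (0.75 ± 0.40, FDR = 0.231, with the block 0.0318). Zfas1 had 34.6 ± 6.9 and 49.4 ± 9.0 CPM (-0.46 ± 0.15, FDR = 0.0639, with the block 6.11e-05). Dleu2, the host of miR-15a and miR-16, had 8.03 ± 1.46 and 12.4 ± 3.0 CPM (-0.56 ± 0.17, FDR = 0.0548, with the block 0.00142). Over the 101 tested lincRNA genes below the level limit, 4 were higher and 5 were lower (3.96% and 4.95%, against 6.82% and 6.15% of all tested genes), and the median log2 fold change was 0.04.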
